A study of Mus musculus with 4 samples.

Results

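The acid-base genes of intercalated cells were 10 genes taken by name from the table of cluster averages, *Slc4a1*, *Slc26a4*, *Slc4a9*, *Foxi1*, *Kit*, *Atp6v0d2*, *Atp6v1g3*, *Atp6v1b1*, *Rhcg* and *Car2*, out of 19632 gene rows. Each was read in all 23 clusters and in all 4 mice, and all 10 had a row. The value of a gene, called its level here, is its mean over the nuclei of a cluster in a mouse, per 10000 counts. They are not corrected for gene length, so levels were compared between clusters and mice within a gene.

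Nuclei came from the kidney cortex of 4 male mice of mixed strain, 1 mouse in each group, and all of them ate doxycycline for 1 week. The control mouse and the control mouse with AAI carried TRE-hKLF6 alone, without a driver. The hKLF6 OE mouse and the hKLF6 OE mouse with AAI carried CAG-rtTA,TRE-hKLF6, in which a ubiquitous promoter drives human KLF6 when doxycycline is given, so the transgene is not limited to the tubule. AAI is aristolochic acid I, a plant toxin that damages DNA and injures the proximal tubule, given once at 2 mg/kg and followed for 24 hours. The 4 mice are always listed in the order control, control with AAI, OE and OE with AAI. With 1 mouse per group there was no spread between replicates, so no test between conditions was made, and the SD over the 4 mice (n = 4) includes the differences between conditions.

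Intercalated cells are scattered among the principal cells of the connecting tubule and collecting duct and set the final acidity of urine. Type A cells secrete acid through an apical V-ATPase and return bicarbonate to the blood through the exchanger encoded by *Slc4a1*, whereas type B cells secrete bicarbonate through pendrin, encoded by *Slc26a4*. Carbonic anhydrase supplies the proton and the bicarbonate to both types, and FOXI1 is the transcription factor that their development requires.

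The clusters labelled IC-A, IC-B-1 and IC-B-2 carried the markers of these cells. All 5 type A markers (*Slc4a1*, *Aqp6*, *Adgrf5*, *Dmrt2* and *Kit*) were highest in IC-A among the 23 clusters, and all 5 type B markers (*Slc26a4*, *Slc4a9*, *Hmx2*, *Insrr* and *Lsamp*) were highest in IC-B-1 or IC-B-2. Both lists include members, so this check is not independent of them. RNA of other tubule cells was also present. The summed level of 6 proximal tubule markers in IC-A was 96.9, 65.3, 118 and 55.1, lower in both mice with AAI, with the same order of mice in IC-B-1, IC-B-2 and the principal cells (CD_PC). None of the 6 was at 0 in IC-A. *Kap* carried most of the sum there, with a mean of 64.3 beside 83.8 for all 6. The share of mitochondrially encoded genes in IC-A was likewise lower in both mice with AAI, at 2.44%, 1.43%, 3.27% and 1.53%. The number of nuclei and of counts behind a value is not in the table. Of all genes, 38.0% to 43.0% were at 0 in IC-A, 36.8% to 41.7% in IC-B-1 and 46.3% to 53.0% in IC-B-2. The mouse row *Klf6* was low in IC-A, at 0.0573, 0.304, 0.200 and 0.298, higher in the OE mouse than in control without AAI and about equal with AAI. It was 0.265, 0.612, 0.338 and 0.482 in IC-B-1 and 0.38, 1.1, 0.505 and 0.999 in IC-B-2. Its median over the 23 clusters was lower in OE both without and with AAI, at 0.335, 0.537, 0.179 and 0.468. Whether reads of the human transgene reach this row is not known.

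Of the 10 members, 9 had their highest level in an intercalated cell cluster, against 12.3% of the 8112 genes with a level of at least 0.5 in some cluster. The exception was *Rhcg*. In those 9 members every mouse of at least 1 intercalated cell cluster lay above every value of the 20 other clusters, which held for 2.14% of the 8112 genes, and in 5 of them (*Slc4a9*, *Foxi1*, *Atp6v0d2*, *Atp6v1g3* and *Atp6v1b1*) this was so for all 3 clusters, against 0.505%. The clusters were made from the same genes, so these shares are descriptions.

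**Figure D1:**
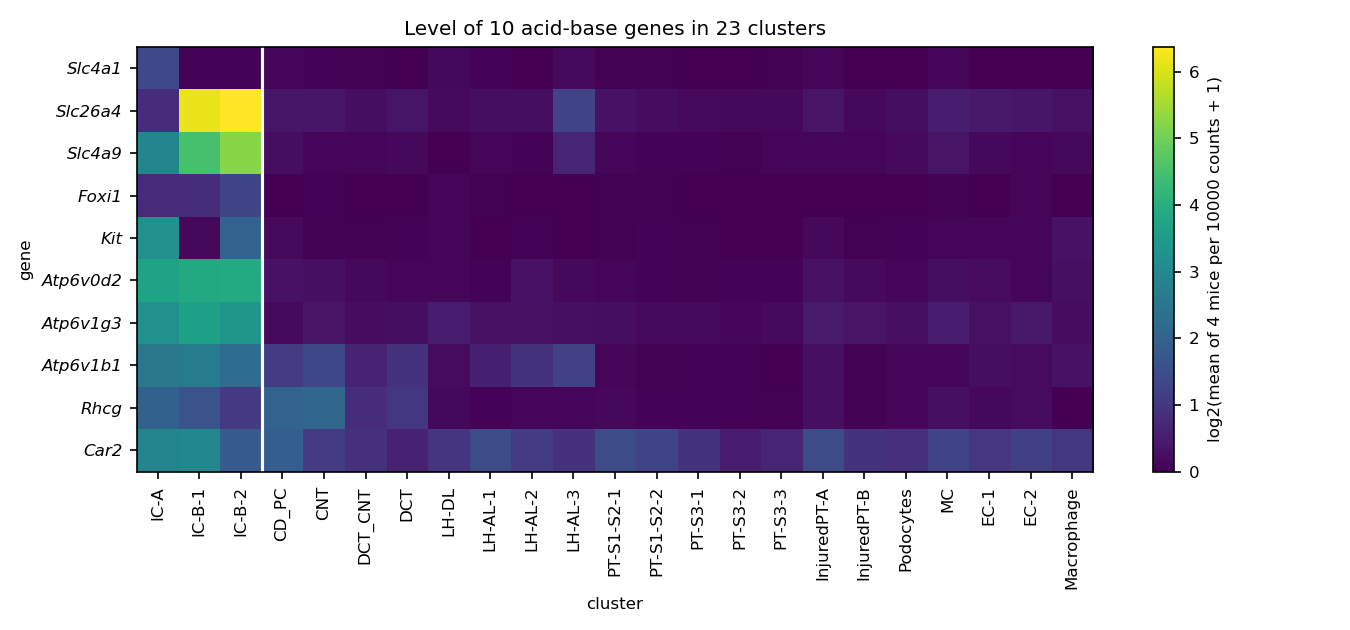
Level of the 10 genes (rows) in 23 clusters (columns), as log2 of the mean of the 4 mice plus 1, with the white line to the right of the 3 intercalated cell clusters. *Slc26a4* was brightest in IC-B-1 (mean 71.5) and IC-B-2 (81.8), whereas *Rhcg* and *Car2* had signal outside the 3 clusters.

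The 3 anion exchanger genes separated the clusters. *Slc4a1* (chr11:102348824-102366203, minus strand, GRCm38), the chloride-bicarbonate exchanger AE1 of type A cells, was 2.62, 0.980, 1.79 and 1.14 in IC-A. In IC-B-1 it lay between 0.0137 and 0.0502, and in IC-B-2 it was listed at 0 in 3 of 4 mice. The ranges did not overlap. The highest of the other 20 clusters was LH-AL-3, an ascending limb cluster in which 60.5% to 63.4% of genes were at 0, where only the OE mouse had a value, 0.443.

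*Slc26a4* (chr12:31519827-31559969, minus strand), the type B exchanger pendrin, was 63.6, 85.0, 51.6 and 86.0 in IC-B-1 and 67.9, 93.2, 87.1 and 79.0 in IC-B-2. In IC-A it was 1.18, 0.691, 0.936 and 0.256. The type B clusters lay far above IC-A in all 4 mice and overlapped with each other. The means of the other 20 clusters ran from 0.0925 to 1.43, beside 0.766 in IC-A. The upper end was LH-AL-3 alone, where the 4 mice had 0, 0, 0.502 and 5.22, and the next highest of the 20 was the mesangial cluster (MC) at 0.421, below IC-A. The highest single value outside the type B clusters was that 5.22, in LH-AL-3 of the OE mouse with AAI, the column that also held the highest *Slc4a9* value outside the intercalated cells.

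*Slc4a9* encodes AE4, a basolateral anion exchanger of type B cells. It was 40.1, 31.5, 35.8 and 40.5 in IC-B-2 and 23.4, 21.3, 23.4 and 19.8 in IC-B-1, and every mouse was higher in IC-B-2 (ratio of means 1.68). In IC-A it was 10.0, 3.30, 7.74 and 5.28, below both type B clusters and above every value of the 20 other clusters, of which the highest was 1.67 (that LH-AL-3 column). The IC-A level of *Slc4a9* did not keep the proportion to *Slc26a4* seen in type B clusters: the ratio of their means was 8.60 in IC-A, 0.307 in IC-B-1 and 0.452 in IC-B-2, and at most 0.674 in the 20 others.

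The regulator *Foxi1* (chr11:34204338-34208089, minus strand) was present in all 3 clusters. It was 1.25, 0.660, 0.379 and 0.640 in IC-A, 0.944, 1.01, 0.455 and 0.764 in IC-B-1, and 1.38, 2.20, 1.26 and 1.28 in IC-B-2. Values in IC-B-2 lay above those of both other clusters in all 4 mice, without overlap, and IC-A and IC-B-1 overlapped. No value of the 20 other clusters exceeded 0.308.

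*Kit* (chr5:75574916-75656722, plus strand), a receptor tyrosine kinase with stem cell factor as its ligand, divided the type B clusters. It was 9.55, 6.36, 8.29 and 8.86 in IC-A, 3.15, 3.11, 3.01 and 2.83 in IC-B-2, and 0.106, 0.1195, 0.130 and 0.0492 in IC-B-1. The 3 clusters were fully apart, and the log2 difference of IC-B-2 over IC-B-1 was 1.87 ± 0.03 (SD, n = 4). The other type A markers did not accompany *Kit*: their sum was 22.5 in IC-A, 1.23 in IC-B-1 and 0.481 in IC-B-2, with *Dmrt2* at 0 in IC-B-2. *Adgrf5* carried most of that sum in IC-A (mean 16.2). In IC-B-2 *Adgrf5* was 0.331, *Aqp6* 0.110 and *Slc4a1* 0.0403 (means). *Kitl*, the gene of the ligand, was highest in the endothelial cluster EC-2 (mean 3.59) and 0.217 to 0.493 in the intercalated cell clusters.

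**Figure D2:**
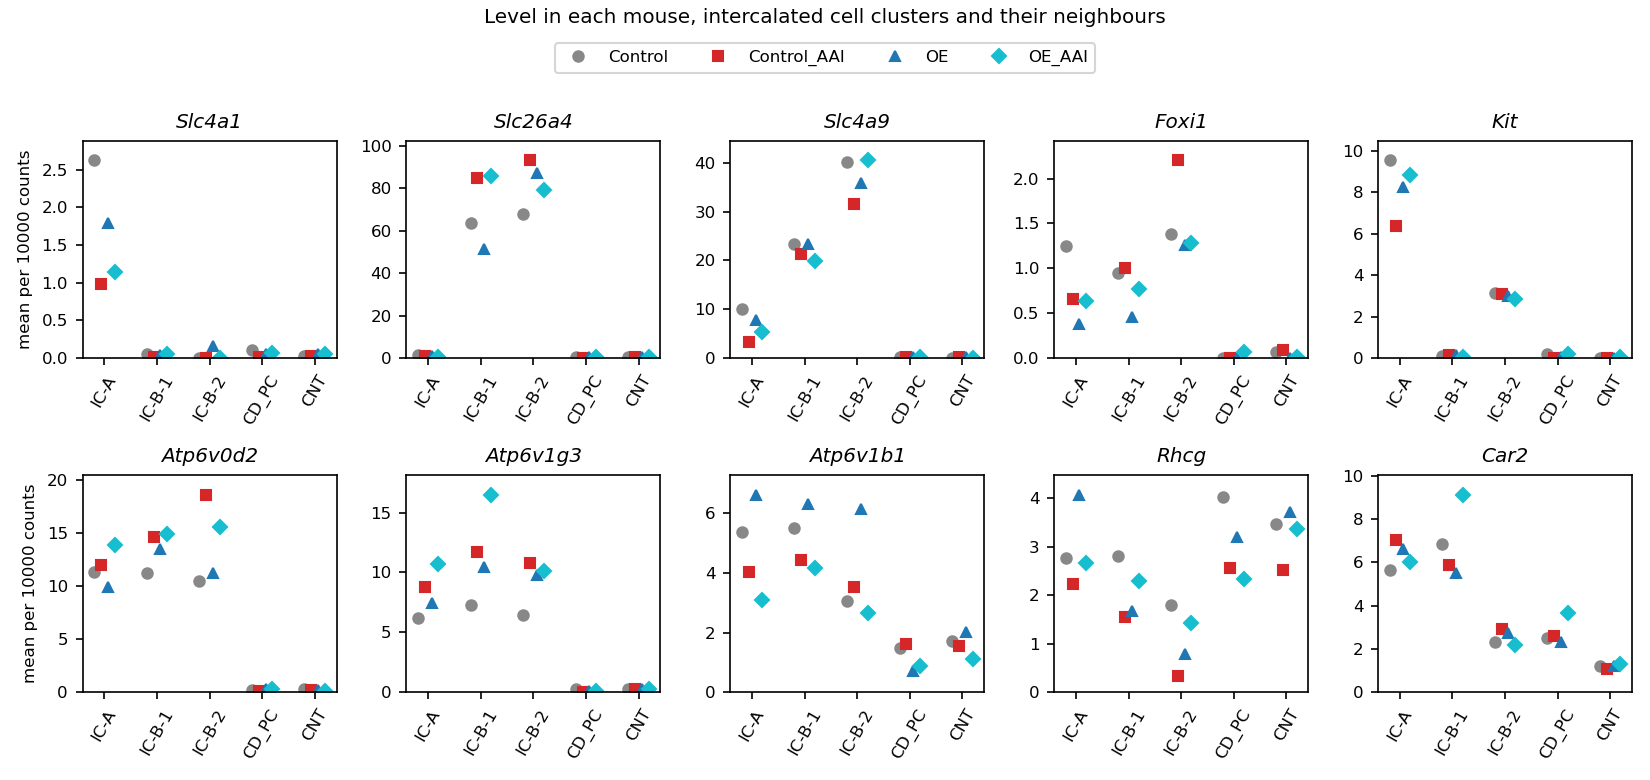
Level (mean per 10000 counts, linear axis from 0) of each gene in the 4 mice, 1 point per mouse, in IC-A, IC-B-1, IC-B-2, CD_PC and the connecting tubule (CNT). *Kit* formed 3 separate levels in IC-A, IC-B-2 and IC-B-1, and *Rhcg* was as high in CD_PC and CNT as in IC-A.

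The V-ATPase is a proton pump with a membrane sector, V0, and a catalytic sector, V1, several subunits of which have paralogs limited to a few tissues. *Atp6v0d2* (chr4:19876841-19922605, minus strand), the d2 subunit of V0, was 11.36, 11.999, 9.91 and 13.9 in IC-A, 11.26, 14.6, 13.5 and 14.9 in IC-B-1, and 10.5, 18.6, 11.21 and 15.5 in IC-B-2. The 3 clusters overlapped, and no value of the 20 others exceeded 0.600. *Atp6v1g3* (chr1:138273738-138289462, plus strand), the G3 subunit of V1, was 6.20, 8.77, 7.48 and 10.7 in IC-A, 7.29, 11.7, 10.5 and 16.5 in IC-B-1, and 6.48, 10.8, 9.75 and 10.1 in IC-B-2. The clusters overlapped here too, although IC-B-1 was the highest of the 3 in every mouse.

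*Atp6v1b1* (chr6:83742990-83758855, plus strand), the B1 subunit of V1, whose loss causes distal renal tubular acidosis, was 5.37, 4.05, 6.64 and 3.11 in IC-A, 5.51, 4.44, 6.33 and 4.15 in IC-B-1, and 3.06, 3.53, 6.16 and 2.65 in IC-B-2. Again the ranges overlapped. Unlike the d2 and G3 genes it had a level in the neighbouring segments, with means of 1.60 in CNT, 1.16 in CD_PC and 0.924 in the distal convoluted tubule (DCT).

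The partner paralogs showed how the pump genes were divided over the kidney. As a share of the pair, computed from the means of 4 mice and without correction for length, so that it can be read between clusters only, *Atp6v1b1* took 77.6% to 79.2% of *Atp6v1b1* and *Atp6v1b2* in the intercalated cell clusters. In the 20 others its median share was 8.65%, and the highest was 58.0%, in CNT. *Atp6v1g3* took 93.2% to 95.6% of the pair with *Atp6v1g1*, against at most 32.6% elsewhere. *Atp6v0d2* took 89.3% to 92.1% of the pair with *Atp6v0d1*, against at most 18.4%. The a4 subunit gene *Atp6v0a4* did not divide the clusters in this way, since its share of the pair with *Atp6v0a1* was 92.9% to 95.3% in intercalated cells and reached 92.3% in the proximal tubule cluster PT-S1-S2-1.

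**Figure D3:**
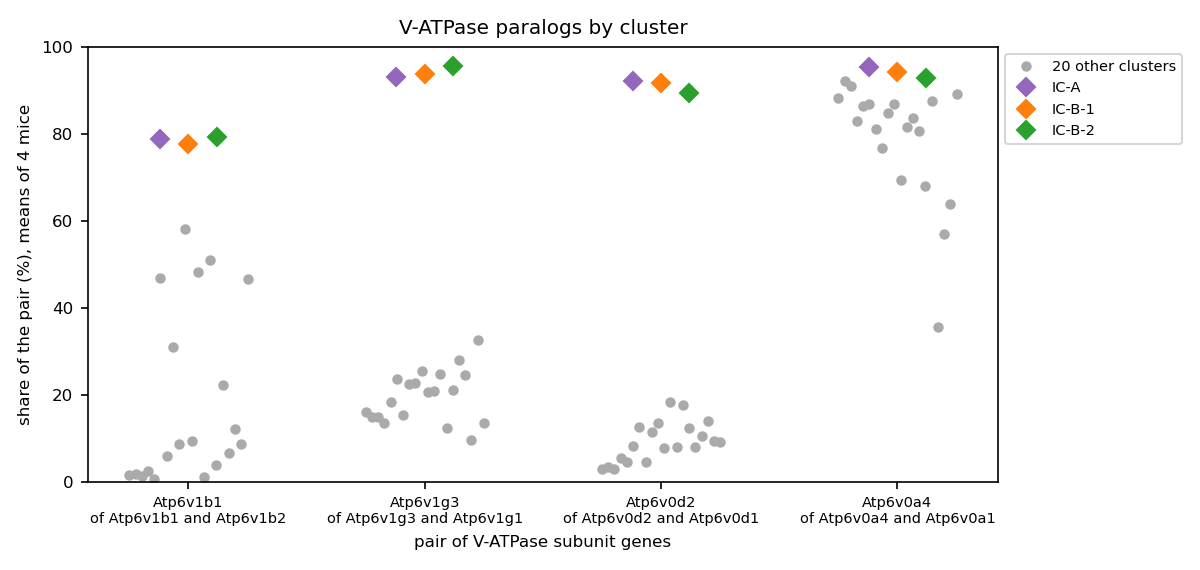
Share (%) of 4 V-ATPase genes in the sum with a widely expressed paralog, by cluster, from means of 4 mice (coloured diamonds, intercalated cell clusters, and grey points, the 20 others). For *Atp6v1g3* and *Atp6v0d2* the diamonds stood at 89.3% or more and all grey points at 32.6% or less, whereas for *Atp6v0a4* they nearly touched.

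Of the 25 genes of the V-ATPase list 23 had a row, and 14 were highest in an intercalated cell cluster. Besides the members, *Atp6v1c2*, a C2 subunit, stood out by its level against the 20 others, at 4.56 in IC-A, 8.04 in IC-B-1 and 9.61 in IC-B-2 (means) and at most 0.530 elsewhere. *Atp6v1g2* was close to 0 in all 3.

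Because the pump genes and *Foxi1* share these clusters, the upstream sequence of a pump gene with the forkhead core GTAAACA, in either strand (TGTTTAC), is shown beside one without it. RefSeq promoters (GRCm38.p6) were held for 6 of the 10 members, as 7 promoters, and the 200 bases from 250 to 51 before the start were searched. The core occurred in 1 of the 7 and in 2.58% of 32851 promoters of all genes. The match was in *Atp6v1b1* (chr6:83742767-83742966, plus strand), its first base 98 before the start, in capitals below. The window of *Atp6v1g3* (chr1:138273488-138273687, plus strand), whose gene was limited more sharply to the 3 clusters, held no match to these letters. Whether FOXI1 binds either was not measured.
Atp6v1b1: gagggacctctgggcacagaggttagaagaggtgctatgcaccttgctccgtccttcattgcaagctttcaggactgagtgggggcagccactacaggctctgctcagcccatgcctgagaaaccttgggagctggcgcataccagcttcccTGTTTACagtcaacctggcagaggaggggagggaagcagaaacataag
Atp6v1g3: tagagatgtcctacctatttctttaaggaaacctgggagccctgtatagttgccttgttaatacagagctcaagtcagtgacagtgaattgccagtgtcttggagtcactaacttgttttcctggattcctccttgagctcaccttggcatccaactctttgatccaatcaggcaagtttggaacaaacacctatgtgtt

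*Rhcg* (chr7:79593363-79617657, minus strand), an ammonia channel of the distal nephron, was 3.46, 2.53, 3.71 and 3.37 in CNT and 4.02, 2.56, 3.20 and 2.34 in CD_PC. In IC-A it was 2.77, 2.24, 4.08 and 2.66, in IC-B-1 it was 2.81, 1.55, 1.67 and 2.30, and in IC-B-2 it was 1.80, 0.3335, 0.787 and 1.43. CNT, CD_PC and IC-A overlapped, only in the OE mouse was an intercalated cell cluster the highest of the 23, and IC-B-2 lay below IC-A in all mice. The basolateral relative *Rhbg* had a similar order among the 3 clusters, with means of 2.04 in IC-A, 1.28 in IC-B-1 and 0.201 in IC-B-2, and 1.47 in CNT.

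*Car2* (chr3:14886273-14900770, plus strand), a cytosolic carbonic anhydrase, was the most widespread member. It was 5.64, 7.03, 6.63 and 5.99 in IC-A and 6.83, 5.86, 5.52 and 9.13 in IC-B-1, but 2.32, 2.91, 2.74 and 2.16 in IC-B-2. IC-B-2 was lower than both in every mouse, by 1.05 ± 0.06 on the log2 scale against IC-A (SD, n = 4). Its range overlapped that of CD_PC, which was 2.31 to 3.64, and no cluster was without *Car2*, since the lowest mean was 0.406. *Car12*, a membrane-bound carbonic anhydrase, had the opposite order, with means of 6.23 in IC-A, 21.03 in IC-B-1 and 38.3 in IC-B-2. In the proximal tubule cluster PT-S1-S2-1 the mean of *Car12* was 7.56, above IC-A and below both type B clusters. *Car2* and *Car12* were the only genes of the 15 carbonic anhydrase genes with a row with a mean of the 4 mice of at least 0.5 in any of the 3 clusters.

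Counted over the members, the 3 clusters differed as follows, where apart means that the ranges of the 4 mice did not overlap and at least 1 mean was 0.5 or more. Against IC-B-1, IC-A was higher and apart in 2 members (*Slc4a1* and *Kit*, 6.04% of all genes) and lower in 2 (*Slc26a4* and *Slc4a9*, 4.28%). Against IC-B-2, IC-A was higher in 4 (*Slc4a1*, *Kit*, *Rhcg* and *Car2*, 9.9%) and lower in 3 (*Slc26a4*, *Slc4a9* and *Foxi1*, 7.1%). IC-B-2 was higher than IC-B-1 in 3 (*Slc4a9*, *Foxi1* and *Kit*, 5.84%) and lower in 1 (*Car2*, 6.35%). None of the 3 V-ATPase members was apart in any pair of clusters.

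AAI was compared with no injury as the difference of log2(level + 1) between the mice with and without AAI, in each genotype separately. These 2 differences share no mouse. A gene was counted when at least 1 side was 0.5 or more and the difference was 0.2 or more. This is a low bar, since in the 3 clusters 24.9% to 35.6% of all genes tested were counted as higher in a single contrast of AAI and 25.3% to 35.7% as lower. Therefore the counts below need the same direction in both genotypes.

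In IC-A, 5 of 10 members were lower with AAI in both genotypes, against 9.73% of the 4193 genes tested, and 1 was higher, against 11.8%. Lower were *Slc4a1*, by 0.87 in control and 0.39 in OE on the log2 scale, *Slc4a9*, by 1.36 and 0.48, *Slc26a4*, by 0.37 and 0.62, *Atp6v1b1*, by 0.34 and 0.89, and *Rhcg*, by 0.22 and 0.47. In all 5 genes both mice with AAI lay below both mice without it. Of these, 2 were not limited to IC-A. *Rhcg* was also lower in both genotypes in CD_PC (-0.495 in control and -0.332 in OE), and *Atp6v1b1* in DCT (-0.398 and -0.3225). In CNT, *Rhcg* was counted as lower in control alone (-0.340) and *Atp6v1b1* in OE alone (-0.503). *Atp6v1b1* in CD_PC was not lower in either (0.0839 and 0.136). *Slc26a4* had the low IC-A levels described above, and since 1 is added to each level the differences of *Slc4a1* and *Slc26a4* are smaller than their ratios. With AAI, the summed level of 4 CNT and DCT markers in IC-A was higher in both genotypes, at 40.1, 71.4, 14.8 and 39.7, while the proximal tubule sum and the mitochondrial share were lower. The part of these shifts in the lower values was not tested. *Slc8a1* carried most of the CNT and DCT sum in IC-A, with a mean of 31.5 beside 41.5 for all 4 markers. With the mitochondrial genes left out, all 71 counted differences of the members kept their direction and stayed counted. Those genes held at most 3.27% of a column of the 3 clusters, so leaving them out could move a difference only slightly. It does not test the shifts named above.

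In the type B clusters fewer members were counted as lower in both genotypes. In IC-B-1, *Slc26a4* and *Atp6v1g3* were higher in both genotypes (2 of 8 members that passed the filter, against 9.94% of genes) and *Atp6v1b1* was lower (7.93%). In IC-B-2, *Atp6v0d2* was higher in both (1 of 9, against 12.9%) and no member was lower (12.3%). *Slc4a1* did not pass the filter in both contrasts in either cluster, and *Kit* not in IC-B-1. *Slc4a9* differed by -0.127 in control and -0.231 in OE in IC-B-1, and by -0.338 and 0.173 in IC-B-2. *Rhcg* was lower in control and higher in OE in both clusters (-0.579 and 0.307 in IC-B-1, -1.07 and 0.445 in IC-B-2). In IC-B-2, *Atp6v1b1* differed by 0.16 in control and -0.974 in OE. The share in IC-B-2 was near that of all genes. Differences between the 2 types were not tested.

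**Figure D4:**
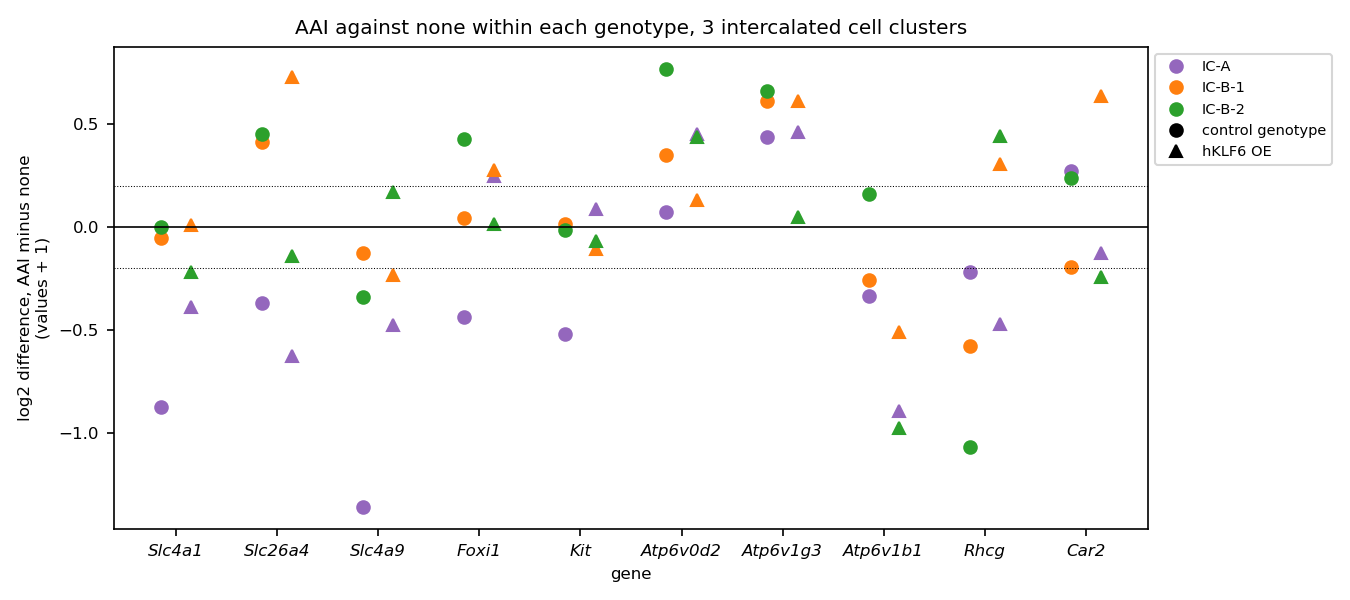
Difference of log2(level + 1) between the mice with and without AAI for each gene, by cluster (colour) and genotype (circle, control, and triangle, hKLF6 OE), each point from 2 mice, with dotted lines at 0.2 and -0.2. *Atp6v0d2* and *Atp6v1g3* had all 6 points above 0, and *Atp6v1b1* had 5 of 6 below -0.2.

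Within the V-ATPase, the member genes went different ways. *Atp6v1g3* was higher with AAI in 6 of 6 combinations of cluster and genotype, by 0.05 to 0.66, and *Atp6v0d2* in 6 of 6, by 0.07 to 0.77. *Atp6v1b1* was lower by at least 0.2 in 5 of 6, from -0.97 to 0.16. A higher level of any size in 6 of 6 was found for 2 members and for 7.22% of the 3157 genes tested, and by at least 0.2 in 6 of 6 for no member and 1.3% of genes. No member was lower in 6 of 6 (4.91% of genes by any amount, 1.68% by at least 0.2). These 6 values are not independent, since each mouse gives 3 of them. Of the 19 V-ATPase genes that passed in the mean of the 3 clusters, 2 were higher in both genotypes (*Atp6v0d2* and *Atp6v1g3*) and 2 were lower (*Atp6v1c2* and *Atp6v0b*), against 8.07% and 6.62% of all genes, and the median difference was -0.09 in control and -0.05 in OE, beside -0.00108 and 0.0424 over all genes. *Atp6v1c2* was 8.28, 6.05, 8.47 and 6.81 in that mean.

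In single contrasts of the unweighted mean of the 3 clusters, AAI in control gave 3 higher and 4 lower members, against 19.4% and 17.7% of all genes, and AAI in OE gave 3 higher and 2 lower, against 28.0% and 20.8%. OE against control gave 2 higher and 1 lower without AAI, against 15.5% and 22.8%, and 4 higher and 2 lower with AAI, against 15.2% and 17.7%. In that mean, 3 of 10 members were higher with AAI in both genotypes, against 8.07% of the genes tested, and 1 was lower, against 6.62%. *Atp6v1g3* was 6.66, 10.4, 9.23 and 12.4, *Atp6v0d2* was 11.04, 15.1, 11.5 and 14.8, and *Slc26a4* was 44.2, 59.6, 46.5 and 55.1. In that mean, both mice with AAI were above both mice without it in all 3 genes. By cluster, *Slc26a4* was higher with AAI in 3 of 6 combinations and lower in 3. In the mean it was no longer counted in OE once differences were centred on the median of all genes. *Slc4a1* was the lower one, at 0.891, 0.331, 0.665 and 0.396, and it did not pass with a minimum level of 2. The other 6 members were not counted in the same direction in both genotypes, and *Car2* differed by no more than 0.18 in either.

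The other genes of acid-base transport were read by list, in the mean of the clusters. Among all genes tested there, 8.07% were counted as higher with AAI in both genotypes and 6.62% as lower. The lists are short, and their counts were not tested against these shares. *Car12* was 23.2, 14.2, 31.0 and 19.04 in the mean of the clusters, lower with AAI in 6 of 6 combinations and in both genotypes by 0.67 and 0.68. Its mean in PT-S1-S2-1 was above that in IC-A, and the part of proximal tubule RNA in its lower values was not tested. Among 6 passing bicarbonate and anion exchangers, *Slc4a3* and *Slc26a4* were higher and *Slc4a1* lower in both. *Slc4a3* was highest in DCT (mean 1.17), beside 0.389 to 0.711 in the 3 clusters. By cluster it was higher with AAI in 4 of 6 combinations. Among the ammonia genes, *Glul* and *Pck1* were lower in both. The lower *Glul* was not limited to intercalated cells. It was 0.808, 0.316, 0.731 and 0.104 in CNT and 0.579, 0.388, 0.628 and 0.159 in CD_PC. *Glul* was highest in the injured proximal tubule cluster InjuredPT-A (mean 2.17). *Pck1* is a proximal tubule gene, highest in PT-S1-S2-2 (mean 9.47), and its values in the intercalated cells, 1.64, 1.11, 4.07 and 2.41, were lower with AAI in both genotypes, as was the proximal tubule sum given above, whose part was not tested. Of 13 passing regulators, *Mecom* and *Nr3c2* were higher and *Hmx2*, a factor of type B cells, was lower, at 2.18, 1.62, 2.29 and 1.74. *Mecom* was highest in DCT and *Nr3c2* in CNT. The summed level of the 4 CNT and DCT markers was higher with AAI in both genotypes in IC-A and in IC-B-2. In IC-B-2 it was 10.2, 11.6, 2.31 and 18.2. In IC-B-1 it was 25.9, 14.8, 7.14 and 16.6, lower with AAI in control and higher in OE. *Slc8a1* carried most of that sum (mean 12.2 beside 16.1). In IC-B-1 of control, *Mecom* (19.1 and 26.0) and *Nr3c2* (11.9 and 16.3) were higher with AAI. Both genes were also higher with AAI in CD_PC in both genotypes. In CNT *Mecom* was 34.7, 39.9, 35.2 and 42.8, and *Nr3c2* was higher in control but not in OE (24.3 and 24.2). The part of CNT and DCT RNA in the higher *Mecom* and *Nr3c2* was not tested. None of the other transport genes was counted in both genotypes.

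For genotype, the 2 contrasts were hKLF6 OE against control without AAI and with AAI. In the mean of the 3 clusters 1 of 9 passing members was higher in both, against 1.72% of the genes tested, and 1 was lower, against 4.16%. The higher one was *Atp6v1g3*, by 0.42 without AAI and 0.24 with AAI. The lower one was *Foxi1*, by 0.37 and 0.27, with means of 1.19, 1.29, 0.697 and 0.896. Both OE mice lay below both control mice for *Foxi1*. *Foxi1* was no longer counted in both contrasts without IC-B-2 or with a minimum level of 2. The CNT and DCT marker sum was lower in OE without AAI in all 3 clusters, and with AAI it was lower in IC-A (39.7 against 71.4) and higher in IC-B-1 (16.6 against 14.8) and IC-B-2 (18.2 against 11.6), and its part was not tested.

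By cluster, *Foxi1* was lower in OE in 6 of 6 combinations, from -0.71 to -0.02, as were 3.39% of the 3071 genes tested, and lower by at least 0.2 in 3 of the 6. By at least 0.2 in all 6, no member was higher (0.0977% of genes) or lower (0.163%). *Atp6v1g3* was higher by at least 0.2 in 5 of 6, the exception being IC-B-2 with AAI. *Atp6v1g3* alone was higher in both contrasts within a cluster, in IC-A (5.27% of genes) and IC-B-1 (4.24%). No member was lower in both within IC-A (7.92% of genes) or IC-B-1 (8.55%). In the mean of the 3 clusters, *Atp6v1b1* was higher in OE without AAI (by 0.39) and lower with AAI (by 0.22). Outside the members, in that same mean, *Car12* was higher in both contrasts, by 0.40 in each, and *Pck1* was higher, by 0.94 and 0.70. *Nr3c2*, the mineralocorticoid receptor, was lower there, by 0.27 and 0.37. The difference of *Pck1* was not limited to intercalated cells. It had the same order of mice in CD_PC, at 1.54, 1.07, 4.84 and 2.58, and in CNT, at 1.42, 0.642, 3.85 and 1.84.

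A test of 2 mice against 2 could not go below p = 0.333 by exact permutation, and an additive model of genotype and AAI would leave 1 residual degree of freedom, so neither was used. The values describe these 4 mice.

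Genes resembling each member over the 92 columns were ranked by Pearson's r. The 4164 genes compared had a level of at least 2 somewhere, and members were left out. Nearest therefore means nearest among these genes. Other members could be nearer, since r was 0.977 between *Atp6v0d2* and *Atp6v1g3* and 0.940 between *Foxi1* and *Slc4a9*. The columns share mice, and the resemblance is set mainly by which clusters are high. *Slc4a1* and *Kit* were both nearest to *Aqp6*, a type A aquaporin (r = 0.92 and 0.83), followed by *Pdlim3*. *Slc26a4* was nearest to *Lsamp* (r = 0.99) and *Insrr*, and *Slc4a9* to *Rp1* (r = 0.98). *Foxi1* and *Atp6v0d2* were nearest to *Syn2* (r = 0.94 and 0.98), and *Atp6v1g3* to *9130008F23Rik* (r = 0.96). *Atp6v1b1* was nearest to *Tmem117* (r = 0.94) and *Car2* to *Cpsf4l* (r = 0.78). *Rhcg* differed from the rest in being nearest to a sodium channel subunit gene of principal cells, *Scnn1b* (r = 0.89), with *Gata3* among the next.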

How the data were processed

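Single-nucleus RNA sequencing of kidney cortex from 4 mice was used. Reads were counted by the authors (Cell Ranger, pre-mRNA reference of mm10), so that introns are included, and nuclei were clustered with Seurat. The deposited signal values were scaled to 10000 counts per nucleus and averaged by cluster and mouse on a linear scale, and each of 92 columns sums to 10000. The averaging function is not given in the sources used here, removal of doublets is described only for the chromatin data, and all libraries were run as 1 batch. Without the nuclei and counts behind a column, no counting interval could be given. Of 19632 rows, 23 with date-like names were left out. Cluster names were assigned by the order of sheets in the study's marker table and checked on markers.

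Differences were log2(value + 1), with a minimum of 0.5 on 1 side and a threshold of 0.2. The members, the 6 gene lists and the markers were chosen with earlier results of these data known, and counts over 6 combinations, non-overlap counts and ratios were added after the values were seen. The named genes were the members, their paralogs and, for each member, the 3 most alike genes that were not members. From the lists, the 4 genes highest against other clusters and the gene with the largest difference were named. Of all these, those that bear on a result are printed. *Slc4a3*, *Glul* and *Atp6v0b* were named after their values were seen. The settings varied were the pseudocount (0.1), the filter (none, or a minimum of 2), the threshold (0.5 and 1), centring, leaving out mitochondrial genes or IC-B-2, and other means over mice or clusters. Python 3.11.15, numpy 2.4.6, pandas 2.3.3 and matplotlib 3.10.9 were used. Chromatin data, cell lines and human samples were not analysed here. A result for 1 gene of the ammonia list is not reported here.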

Additional observations from a re-analysis of the deposited data

Results flagged for a closer look

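In 4 cases a member was higher with AAI in one genotype and lower in the other, each by at least 0.2 on the log2 scale in the same cluster. *Foxi1* in IC-A was lower by 0.44 in control and higher by 0.25 in hKLF6 OE, a difference between genotypes of 0.69. *Rhcg* in IC-B-1 differed by -0.58 in control and 0.31 in OE (0.89 apart), and in IC-B-2 by -1.07 and 0.44 (1.51 apart). *Car2* in IC-B-2 differed by 0.24 in control and -0.24 in OE, so that the OE value was -0.48 relative to control. Such opposite differences were found for 12.3% of the genes tested in IC-A, 10.8% in IC-B-1 and 18.5% in IC-B-2. With 1 mouse per group, the difference between genotypes was not tested.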

How the results depend on the processing

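No paired analysis was possible because each group holds 1 mouse and no group comparison came from a test. The count of 9 members highest in an intercalated cell cluster stayed within 1.5 times under the median over mice, each mouse alone, and the mice with or without AAI. All 71 member differences of at least 0.2 within a cluster kept their direction and stayed counted with centring or no mitochondrial genes. Leaving out those genes could move a difference only slightly, as given above. With a pseudocount of 0.1 all 71 stayed counted by construction, since a smaller pseudocount can only enlarge a difference. In the mean of the 3 clusters, lower members in OE against control without AAI went from 1 to 2 with a pseudocount of 0.1, to 0 with a minimum of 2, and to 3 without IC-B-2. Lower members in OE against control with AAI went from 2 to 1 with a minimum of 2 and to 0 without IC-B-2. For AAI in OE, higher members went from 3 to 5 with a pseudocount of 0.1 and to 5 without IC-B-2, and lower members from 2 to 1 with a minimum of 2. Members lower with AAI in both genotypes (*Slc4a1*) went from 1 to 2 with a pseudocount of 0.1, to 0 with a minimum of 2, and to 3 without IC-B-2. Members lower in OE in both contrasts (*Foxi1*) went from 1 to 0 with a minimum of 2 and without IC-B-2. At a threshold of 0.5, AAI in control left 1 higher and 2 lower, AAI in OE left 0 higher and 1 lower, and all other counts were 0, those shared by both contrasts included. At a threshold of 1 all 12 counts were 0. By construction a stricter threshold or minimum counts fewer, and a smaller pseudocount counts at least as many. The cause of the other shifts was not tested. Without replicate mice or counts per value, the error of these counts is unknown.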
